A study of Macaca mulatta with 23 samples.

Results

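The genes described here are TXNIP, the glucose transporter genes SLC2A1 and SLC2A3, and 7 genes of glycolytic enzymes, HK1, HK2, PFKP, ALDOA, PGK1, ENO1 and LDHA. They were taken by symbol, with every probe that the bead array carries for them, which gave 21 of 47230 probes for these 10 genes. Of the 21 probes, 13 were detected on enough arrays to be used, among 15744 such probes on the whole array, and each of the 10 genes kept at least 1 probe among the 9190 genes tested. The cells were CD8+ TEM (effector memory T cells) sorted from the peripheral blood mononuclear cells (PBMC) of 12 rhesus macaques (Macaca mulatta), on 23 arrays. The groups were 6 animals after an antibody against interleukin-15 (Anti-IL15 Ab) and 5 of these animals before it, and 6 other animals after and before an IgG1 control antibody (IgG1 Control Ab). Anti-IL-15 animal 3 had no array before treatment, so 11 animals were paired, 5 given anti-IL-15 and 6 given the control antibody. Every animal received an antibody, so no group shows the passage of time without an injection. The age of the animals, the dose and the interval between the samples were not given in the sources used here.

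Glucose enters T cells through facilitative transporters, of which SLC2A1 (GLUT1) and SLC2A3 (GLUT3) are the best known, and is phosphorylated by hexokinases before it passes down glycolysis to pyruvate and lactate. TXNIP is an arrestin-like protein that binds thioredoxin and promotes the removal of glucose transporters from the cell surface, and its transcription follows the supply of glucose through the MLXIP and MLX factors. Interleukin-15 is a cytokine that maintains memory CD8+ T cells and NK cells, and resting memory cells rely less on glycolysis than dividing effector cells do.

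Between 11263 and 14132 probes were detected per array at a detection p under 0.05, the deposited signals had a median of 92 to 104 per array, and the median correlation of an array with the others ran from 0.945 to 0.970. No deposited label marked a batch. Of 13 genes fixed as markers of CD8+ effector memory T cells, 12 were tested and CD3E was not. Of the 12, 11, among them CD3D, CD3G and CD8A, were detected on every array of every group, and CD8B was detected on 9 of 23 arrays. CD4 was not detected on enough arrays to be tested. From the marker lists of other cell types, CD14, CD68, KLRF1, FCGR3A, HBB, HBA1 and IL7R were detected on all 23 arrays. The number of sorted cells was lower after treatment in every paired animal except control animals 5 and 6, where it was higher. It was 20000 to 109000 cells after anti-IL-15 against 112000 to 274000 before it. With the control antibody it was 66000 to 259557 cells after treatment against 150000 to 500000 before. The same mass of RNA entered every amplification, so a level is relative to the RNA of the sorted cells, and fewer cells with a transcript and less of it per cell cannot be told apart. The array was designed on human genes, and levels are compared only within a probe, never between probes. Sums over marker probes are compared only between groups.

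TXNIP fell after both antibodies, and SLC2A3 rose after anti-IL-15 and in most animals given the control antibody. TXNIP was lower after treatment in 5 of 5 animals given anti-IL-15, by 1.50-fold, and in 6 of 6 given the control antibody, by 1.67-fold. SLC2A3 was higher after anti-IL-15 in 5 of 5 animals, by 1.96-fold. After the control antibody it was higher in 5 of 6, by 1.46-fold, and was not called (limma adjusted p = 0.136). The other 8 genes passed the threshold, an adjusted p under 0.05 over all 9190 genes in limma, in no comparison. Thus 2 of the 10 genes were called after anti-IL-15, where 0.816% of all genes tested were called (0.446% higher and 0.37% lower), and 1 of the 10 after the control antibody, where 2.19% were called (0.718% higher and 1.47% lower). Over 23 alternative fits, the anti-IL-15 call was kept in 7 for TXNIP and in 9 for SLC2A3. None of the 10 was called by limma in the difference between the changes of the arms, where 0.0109% of all genes were, and HK1 and ALDOA had an unadjusted p under 0.05 there, as had 891 of all 9190 genes.

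The median fitted change of the 10 genes was -0.05 after anti-IL-15 and -0.08 after the control antibody on the log2 scale, against -0.05 and -0.04 over all genes tested. After anti-IL-15, 5 of the 10 lay above 0 and 5 below, and after the control antibody 4 lay above and 6 below. As a group the 10 genes therefore sat near the middle of all genes, with TXNIP and SLC2A3 standing at opposite ends. The plot of fitted differences shows all 10 genes in the 3 comparisons made within animals.

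**Figure D1:**
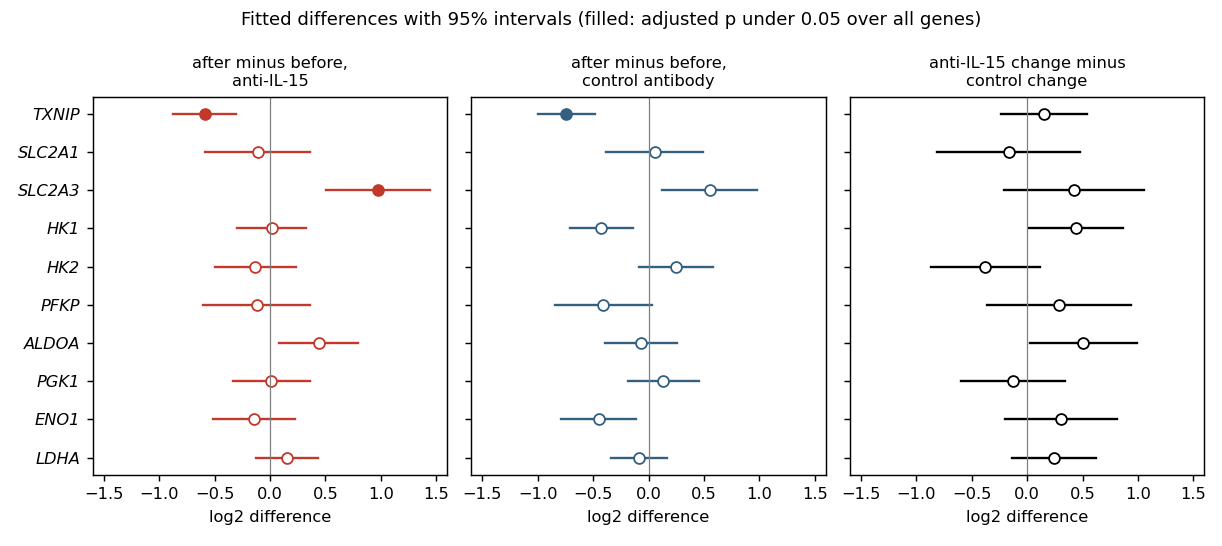
Fitted log2 differences (x axis) of the 10 genes (y axis) with 95% intervals, from left to right after minus before anti-IL-15, after minus before the control antibody, and the first change minus the second. Filled points have an adjusted p under 0.05 over all genes: TXNIP in the left and middle panels and SLC2A3 in the left panel, and none in the right panel.

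TXNIP was read by a single probe, ILMN_1697448, which was detected on all 23 arrays with deposited signals of 1728 to 9942. Its normalised log2 level after anti-IL-15 had a lowest value of 10.91, a median of 11.62 and a highest value of 12.17 in 6 animals. Before anti-IL-15 it stood at 12.27, 12.39, 11.89, 12.41 and 11.40 in animals 1, 2, 4, 5 and 6. The groups overlapped, with animal 6 the lowest at both times, and each of the 5 paired animals was lower after treatment than before.

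After the control antibody the TXNIP level ran from 11.58 over a median of 12.05 to 12.46, and before it from 12.22 over a median of 12.89 to 13.28, in 6 animals each. The 3 highest levels after treatment lay within the range of the earlier ones, so these groups overlapped as well. TXNIP averaged 11.60 ± 0.45 after anti-IL-15 (SD, n = 6) and 12.07 ± 0.43 before it (n = 5). It averaged 12.07 ± 0.36 after the control antibody and 12.81 ± 0.45 before it (n = 6 each). The plot of TXNIP and SLC2A3 by array shows every level with the animals joined.

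**Figure D2:**
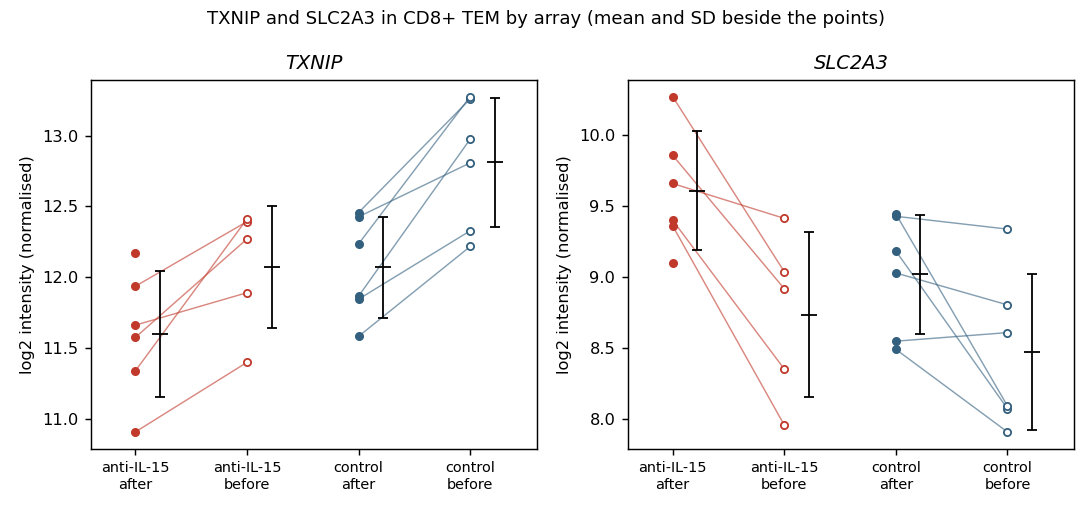
Normalised log2 intensity (y axis) of TXNIP and SLC2A3 on each array, with anti-IL-15 in red and the control antibody in blue, filled points after and open points before treatment, lines joining the arrays of an animal, and bars giving the mean and SD of a group. All 11 lines of TXNIP are lower after treatment, and for SLC2A3 all 5 anti-IL-15 lines and 5 of the 6 control lines are higher after treatment.

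Within animals, the log2 change of TXNIP was -0.70, -0.46, -0.23, -1.07 and -0.49 in anti-IL-15 animals 1, 2, 4, 5 and 6. It was -1.11, -0.80, -0.48, -1.04, -0.63 and -0.38 in control animals 1 to 6. The ranges of the changes overlapped between the arms, with the deepest falls in control animals 1 and 4 and in anti-IL-15 animal 5. The fitted change was -0.59 after anti-IL-15 (SE 0.14, 95% interval -0.87 to -0.31, limma adjusted p = 0.0462) and -0.74 after the control antibody (SE 0.12, adjusted p = 0.0102). By its p-value TXNIP stood at place 6 of the 9190 genes after the control antibody and at place 64 after anti-IL-15.

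The fall of TXNIP was not shown to differ between the arms. The change after anti-IL-15 minus that after the control antibody was 0.15 on the log2 scale (SE 0.18, interval -0.23 to 0.54, limma adjusted p = 0.843). After treatment, TXNIP was at 11.60 on average with anti-IL-15 and at 12.07 with the control antibody, a fitted difference of -0.47 (SE 0.20, limma adjusted p = 0.546). A gap between the arms in the same direction was present before treatment, at -0.74 (SE 0.22, limma adjusted p = 0.360), when no gene of the 9190 passed the threshold. The levels of the arms overlapped at both times.

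The call of TXNIP after anti-IL-15 lay close to the threshold: it was lost without anti-IL-15 animal 1, 2, 4 or 5 and without control animal 2, 5 or 6, with limma adjusted p-values of 0.0513 to 0.198 and changes of -0.68 to -0.47. It was also lost with the animal as a random effect (adjusted p = 0.310), with no replicate block (0.476), with 75th percentile scaling (0.124) and with values from the authors' deposited table (0.0514). The call after the control antibody was lost with no replicate block (adjusted p = 0.103) and without control animal 1, there with a change of -0.67 and an adjusted p of 0.0701.

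SLC2A1, the widely expressed transporter GLUT1 that activated T cells raise, was read by probe ILMN_1659027, detected on all 23 arrays but dim, with deposited signals of 108 to 170. Its log2 level ran from 5.17 over a median of 5.79 to 6.39 after anti-IL-15. Before anti-IL-15 it was 6.21, 6.14, 5.14, 5.30 and 6.30 in animals 1, 2, 4, 5 and 6. With the control antibody it ran from 5.42 over 5.68 to 5.99 after treatment and from 5.10 over 5.78 to 5.83 before. The 4 groups overlapped over most of their range. The fitted change was -0.11 after anti-IL-15 (SE 0.23, 95% interval -0.59 to 0.36, limma adjusted p = 0.858), with 2 animals higher and 3 lower. It was 0.06 after the control antibody (SE 0.21, interval -0.38 to 0.49, adjusted p = 0.917), with 2 higher and 4 lower.

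SLC2A3, the high-affinity transporter GLUT3, was read by probe ILMN_1775708, detected on all 23 arrays with deposited signals of 294 to 1141. SLC2A14 is a close human paralog of SLC2A3, and whether the probe also reads it was not tested. Its log2 level after anti-IL-15 had a lowest value of 9.10, a median of 9.53 and a highest value of 10.27 in 6 animals. Before anti-IL-15 it stood at 8.35, 8.92, 7.96, 9.04 and 9.41 in animals 1, 2, 4, 5 and 6. The groups met only through animal 6, whose earlier level was the highest of the 5 and lay above the 3 lowest later levels.

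After the control antibody the SLC2A3 level ran from 8.49 over a median of 9.10 to 9.44, and before it from 7.91 over a median of 8.35 to 9.34. These groups overlapped over most of their range, and control animal 5 was at the top before treatment. SLC2A3 averaged 9.61 ± 0.42 after anti-IL-15 (SD, n = 6) and 8.73 ± 0.58 before it (n = 5). The averages with the control antibody were 9.02 ± 0.42 after and 8.47 ± 0.55 before it (n = 6 each).

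The log2 change of SLC2A3 was 1.05, 0.94, 1.40, 1.23 and 0.25 in anti-IL-15 animals 1, 2, 4, 5 and 6. It was 1.11, 0.22, 1.35, -0.06, 0.09 and 0.58 in control animals 1 to 6. Anti-IL-15 animals 1, 2, 4 and 5 and control animals 1 and 3 moved by a similar amount, and control animals 2, 4 and 5 and anti-IL-15 animal 6 lay closest to 0. The fitted change was 0.97 after anti-IL-15 (SE 0.22, 95% interval 0.50 to 1.44, limma adjusted p = 0.0462). After the control antibody it was 0.55 (SE 0.21, interval 0.12 to 0.98, limma adjusted p = 0.136), higher in 5 of 6 animals and short of the threshold.

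The change of SLC2A3 after anti-IL-15 minus that after the control antibody was 0.42 (SE 0.30, interval -0.21 to 1.06, limma adjusted p = 0.697), so the changes of the arms were not shown to differ. After treatment the fitted difference between anti-IL-15 and control animals was 0.59 (SE 0.23, limma adjusted p = 0.492), and before treatment it was 0.27 (SE 0.30, adjusted p = 0.791). The anti-IL-15 call of SLC2A3 was lost without anti-IL-15 animal 1, 2, 4 or 5 and without control animal 2, 5 or 6, with limma adjusted p-values of 0.0547 to 0.189 and changes of 0.87 to 0.98. It was also lost with the animal as a random effect (adjusted p = 0.123), with no replicate block (0.250) and with 75th percentile scaling (0.0853).

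**Figure D3:**
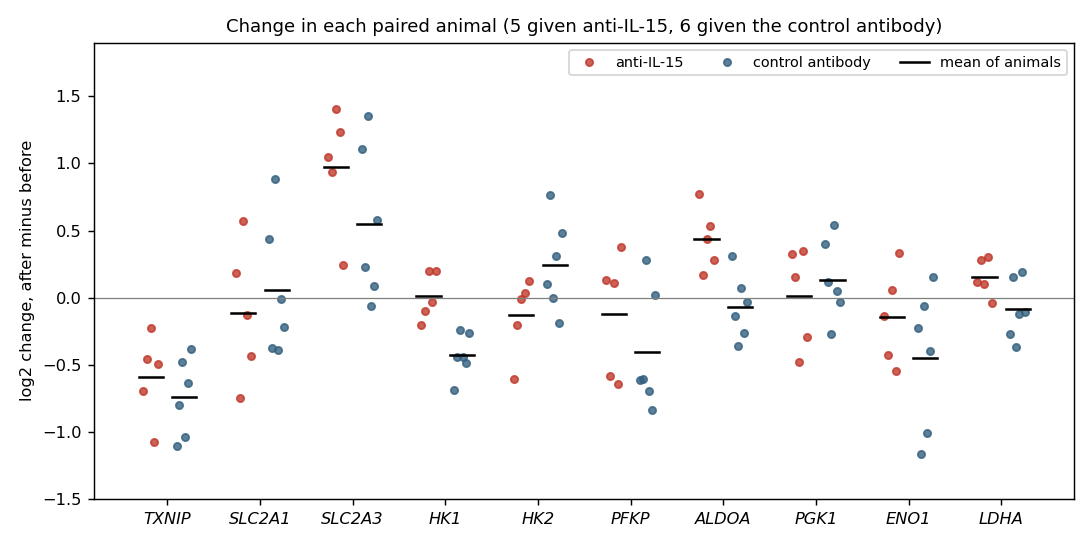
Log2 change, after minus before (y axis), of the 10 genes (x axis) in each paired animal, with 5 animals given anti-IL-15 in red and 6 given the control antibody in blue, and a black line at the mean of each arm. TXNIP points lie below 0 in all 11 animals, SLC2A3 points above 0 in 10 of 11, ALDOA points above 0 in all 5 anti-IL-15 animals and HK1 points below 0 in all 6 control animals.

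HK1, a hexokinase bound to mitochondria that catalyses the entry step of glycolysis in most tissues, was below its earlier level in every control animal but did not pass the threshold. Of its 4 probes, 3 were detected on no array, and the other, ILMN_2382990, was detected on all 23. After the control antibody its log2 level ran from 9.71 over a median of 9.98 to 10.25, and before it from 10.27 over a median of 10.39 to 10.52. These 2 groups did not overlap, which held for 1 of the 10 genes and for 0.74% of all genes tested. The changes in control animals 1 to 6 were -0.69, -0.44, -0.24, -0.44, -0.48 and -0.27. The fitted change was -0.43 (SE 0.14, 95% interval -0.71 to -0.14, limma adjusted p = 0.0855).

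With anti-IL-15 the HK1 level ran from 9.77 over a median of 10.07 to 10.35 after treatment, and was 9.98, 10.19, 10.15, 10.12 and 9.85 before it in animals 1, 2, 4, 5 and 6. The groups covered the same range, and the fitted change was 0.01 (SE 0.15, 95% interval -0.30 to 0.32, limma adjusted p = 0.979). The anti-IL-15 change minus the control change was 0.44 (SE 0.20, interval 0.02 to 0.86, limma adjusted p = 0.498). Before treatment the 5 anti-IL-15 animals all lay below the 6 control animals, which again held for 1 of the 10 genes and for 0.86% of all genes. That earlier difference was -0.34 (SE 0.13, limma adjusted p = 0.409), and after treatment the difference was 0.10 (SE 0.15, adjusted p = 0.920).

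HK2, the inducible hexokinase of activated and dividing cells, was near background. Probe ILMN_1723486 was detected on 2 arrays, both from control animals before treatment, and was not used. The other, ILMN_2156172, was detected on 17 arrays, namely 5 of 6 after and 5 of 5 before anti-IL-15, and 5 of 6 after and 2 of 6 before the control antibody. The log2 level of this probe ran from 4.53 over a median of 5.46 to 6.09 after anti-IL-15, and was 5.14, 5.72, 5.46, 5.26 and 5.36 before it. In the control arm it ran from 4.84 over 5.11 to 5.55 after treatment and from 4.73 over 4.77 to 5.33 before. All groups overlapped. Fitted changes were -0.13 after anti-IL-15 (SE 0.18, limma adjusted p = 0.766) and 0.24 after the control antibody (SE 0.16, adjusted p = 0.438). Before treatment anti-IL-15 animals were above control animals by a fitted 0.49 (SE 0.16, limma adjusted p = 0.360).

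PFKP, the platelet-type subunit of phosphofructokinase that catalyses the committed step of glycolysis, was read mainly by ILMN_1805737, detected on all 23 arrays with signals of 105 to 326. Its log2 level ran from 5.98 over a median of 6.51 to 7.26 after anti-IL-15, and was 7.13, 7.02, 6.17, 6.63 and 6.21 before it in animals 1, 2, 4, 5 and 6. For the control antibody the range was from 4.92 over 6.18 to 7.20 after treatment, and from 5.62 over 6.82 to 7.18 before. The lowest value at both times came from control animal 4, and the groups overlapped. PFKP had a fitted change of -0.12 after anti-IL-15 (SE 0.23, limma adjusted p = 0.842) and -0.41 after the control antibody (SE 0.21, adjusted p = 0.301), where 4 of 6 animals were lower. A second probe, ILMN_1851760, detected on 6 arrays of which 4 were from control animals before treatment, had fitted changes of -0.08 and -0.42 in the same order. It met the limit of 5 arrays only through those 4. The filter thus favoured a fall in the control arm, so the probe is no second support for one.

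ALDOA, the aldolase that splits fructose bisphosphate, was above its earlier level in every anti-IL-15 animal but did not pass the threshold. Probe ILMN_1741148 was detected on all 23 arrays. Levels on the log2 scale ran from 9.17 over a median of 9.52 to 9.76 after anti-IL-15, and were 8.90, 9.00, 9.32, 8.88 and 9.17 before it in animals 1, 2, 4, 5 and 6. Only the later level of animal 2 lay within the earlier range. With the control antibody the level ran from 8.82 over 9.29 to 10.06 after treatment and from 8.96 over 9.23 to 10.41 before, with control animal 3 the highest at both times.

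The changes of ALDOA in the 5 anti-IL-15 animals were 0.77, 0.17, 0.44, 0.54 and 0.28, and the fitted change was 0.44 (SE 0.17, 95% interval 0.08 to 0.79, limma adjusted p = 0.219). After the control antibody it was -0.07 (SE 0.16, interval -0.39 to 0.26, adjusted p = 0.858), with 2 animals higher and 4 lower. The anti-IL-15 change minus the control change was 0.51 (SE 0.23, interval 0.02 to 0.99, limma adjusted p = 0.497). A second, dim probe, ILMN_1736700, detected on 11 arrays, had fitted changes of 0.14 after anti-IL-15 and 0.19 after the control antibody, a difference of -0.05, and so did not show this contrast. Of the remaining 2 ALDOA probes, ILMN_1681374 was detected on no array and ILMN_2251253 on 1.

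**Figure D4:**
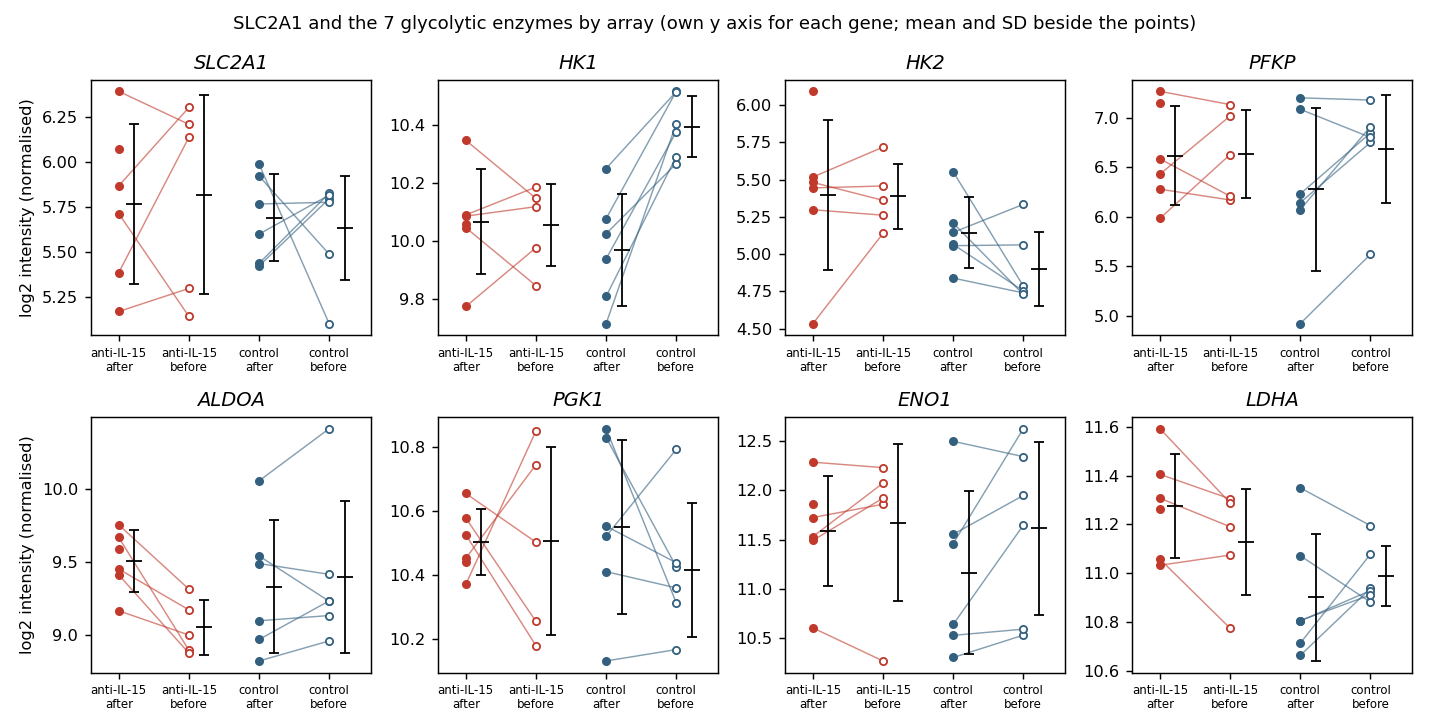
Normalised log2 intensity (y axis, a separate scale for each gene) of SLC2A1 and the 7 enzyme genes on each array, with anti-IL-15 in red and the control antibody in blue, filled points after and open points before treatment, lines joining the arrays of an animal, and bars giving the mean and SD. HK1 levels after the control antibody, at 9.71 to 10.25, all lie below those before it, at 10.27 to 10.52, and the groups of the other genes overlap.

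PGK1, the phosphoglycerate kinase of an ATP-yielding step of glycolysis, had log2 levels between 10.13 and 10.86 on ILMN_1755749, detected on all 23 arrays, and its other probe was detected on none. These levels ran from 10.37 over a median of 10.49 to 10.66 after anti-IL-15, and were 10.26, 10.50, 10.85, 10.18 and 10.75 before it. Levels in the control arm ran from 10.13 over 10.54 to 10.86 after treatment and from 10.17 over 10.39 to 10.79 before. The groups overlapped. PGK1 had a fitted change of 0.01 after anti-IL-15 (SE 0.17, 95% interval -0.34 to 0.36, limma adjusted p = 0.986) and 0.13 after the control antibody (SE 0.15, interval -0.18 to 0.45, adjusted p = 0.688).

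ENO1, the enolase that forms phosphoenolpyruvate, had a wide spread between animals, with an SD of 0.56 to 0.88 within the 4 groups. On its single probe, ILMN_1710756, detected on all 23 arrays, the log2 level ran from 10.61 over a median of 11.63 to 12.29 after anti-IL-15, and was 11.86, 11.92, 12.23, 12.08 and 10.27 before it in animals 1, 2, 4, 5 and 6. Control levels ran from 10.31 over 11.05 to 12.50 after treatment and from 10.53 over 11.80 to 12.63 before. Anti-IL-15 animal 6 was the lowest of its arm at both times, and all groups overlapped. The changes in control animals 1 to 6 were -0.23, -1.17, -0.06, -1.01, -0.39 and 0.16, so animals 2 and 4 stood below the rest. Fitted ENO1 changes were -0.14 after anti-IL-15 (SE 0.18, limma adjusted p = 0.748) and -0.45 after the control antibody (SE 0.16, adjusted p = 0.124).

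LDHA, the lactate dehydrogenase subunit that turns pyruvate into lactate, was read by its probe of highest mean, ILMN_3249748, detected on all 23 arrays. The log2 level ran from 11.03 over a median of 11.28 to 11.59 after anti-IL-15, and was 11.19, 10.78, 11.30, 11.29 and 11.07 before it in animals 1, 2, 4, 5 and 6. With the control antibody it ran from 10.66 over 10.81 to 11.35 after treatment and from 10.88 over 10.93 to 11.20 before. The groups overlapped, with control animal 2 the highest of its arm at both times. LDHA had a fitted change of 0.15 after anti-IL-15 (SE 0.13, limma adjusted p = 0.622), higher in 4 of 5 animals, and -0.09 after the control antibody (SE 0.12, adjusted p = 0.761), lower in 4 of 6. After treatment anti-IL-15 animals were above control animals by 0.37 (SE 0.15, limma adjusted p = 0.494), and before treatment by 0.14 (SE 0.13, adjusted p = 0.746). A second probe, ILMN_1807106, detected on 21 arrays, had the opposite signs, with -0.14 after anti-IL-15 and 0.07 after the control antibody, and ILMN_3251145 was detected on no array.

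Across the arms after treatment, the 10 genes had fitted differences of -0.47 for TXNIP to 0.59 for SLC2A3, 8 of them above 0, and limma called none, with 1 of all 9190 genes called (0.0109%). Before treatment the differences ran from -0.74 for TXNIP to 0.49 for HK2, 6 of them above 0, and none was called (0% of all genes). The unadjusted limma p was under 0.05 for TXNIP, SLC2A3 and LDHA after treatment, and for TXNIP, HK1 and HK2 before it, as it was for 732 and 964 of all 9190 genes at these times. The arms overlapped after treatment for each of the 10 genes (0.566% of all genes did not overlap), and so did the times of the anti-IL-15 arm (1.48% of all genes did not overlap).

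Around these 10 genes, 92 further genes of glucose metabolism and its control were listed and 60 of them tested. Of these, 3 passed the threshold, all of them lower after the control antibody (1.47% of all genes), SLC2A10 only with the reservation given below. None passed it after anti-IL-15 or in the difference between the arms. BSG, the chaperone that carries lactate transporters to the membrane, was 1 of 9 genes tested from the glycolysis regulators and lactate transporters. Its log2 level ran from 5.93 over a median of 6.32 to 6.93 after the control antibody and from 6.65 over 7.50 to 8.07 before it, and it fell in 6 of 6 animals by a fitted 1.12 (limma adjusted p = 0.0310). The groups overlapped, and in control animals 1, 2 and 4 the change was -1.68, -2.03 and -1.72, and in the other 3 it was -0.65 to -0.27. After anti-IL-15 the BSG change was -0.60 (adjusted p = 0.296), with 4 of 5 animals lower.

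PGD, the 6-phosphogluconate dehydrogenase of the pentose phosphate pathway, was 1 of 6 tested genes of that pathway. Its log2 level ran from 4.76 over a median of 5.69 to 6.14 after the control antibody and from 5.80 over 6.41 to 7.01 before it, and it fell in 6 of 6 animals by a fitted 0.82 (limma adjusted p = 0.0367), with levels that overlapped between the times. After anti-IL-15 PGD was lower in 5 of 5 animals, with a fitted change of -0.63 (adjusted p = 0.160) and a difference between the arms of 0.18 (adjusted p = 0.887). SLC2A10, a facilitative transporter of the same family as SLC2A3, was 1 of 3 further transporters tested and lay near background: it was detected on 1 of 6 arrays after and 4 of 6 before the control antibody, and on 1 of 6 after and 0 of 5 before anti-IL-15. Its level fell after the control antibody by a fitted 0.79 (adjusted p = 0.0293), a size that rests on signals near background. SLC2A10 met the limit of 5 arrays only through the arrays before the control antibody, where it was high. The filter thus favoured a fall in that arm, and no conclusion is drawn from this call. After anti-IL-15 its fitted change was 0.01 (adjusted p = 0.993), with 3 of 5 animals higher, and the difference between the arms was 0.79 (adjusted p = 0.350). All 3 calls were lost without control animal 1, 2 or 4, and PGD's also without control animal 5, with limma adjusted p-values of 0.0686 to 0.170.

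The other lists had no gene past the threshold within animals. The 10 further glycolytic enzymes tested had fitted changes of -0.63 to 0.51 after anti-IL-15 and -0.67 to 0.44 after the control antibody. The smallest p-values among them belonged to PFKM, the muscle-type phosphofructokinase, at -0.63 after anti-IL-15 (limma adjusted p = 0.327), and ENO2, the neuronal enolase, with an anti-IL-15 change of -0.58, a control change of 0.44 and a difference of -1.02 (adjusted p = 0.469). Of 8 tested partners and relatives of TXNIP, TXN, the thioredoxin that TXNIP binds, was at 0.50 after anti-IL-15 (adjusted p = 0.359), higher in 5 of 5 animals, and at 0.77 after the control antibody (adjusted p = 0.0736), higher in 4 of 6. MLX, a partner of the glucose-sensing factor that drives TXNIP, was at 0.29 and -0.37, a difference of 0.66 (adjusted p = 0.464).

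Among 10 tested hypoxia and MYC regulators, the hypoxia factor EPAS1 was at -0.54 after anti-IL-15 (limma adjusted p = 0.213) and at -0.15 after the control antibody. BNIP3L, a mitophagy receptor that hypoxia induces, was at -0.38 (adjusted p = 0.214) and -0.04. Of 14 tested genes of the PI3K, AKT and mTOR pathway, the kinase gene RPS6KB1 was at -0.30 after anti-IL-15 and -0.60 after the control antibody (adjusted p = 0.208). TSC1, whose product restrains mTOR, was at -0.22 and -0.43 (adjusted p = 0.209).

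Over the changes of the 11 paired animals, the genes outside the 10 whose pattern was most like that of TXNIP were PANK2 (Pearson r = 0.963), TACC1 (0.931), TTC31 (0.926), SEPTIN7 (0.925) and RFX7 (0.919). The fitted changes of PANK2 were -0.30 after anti-IL-15 and -0.46 after the control antibody, and those of SEPTIN7 were -0.40 and -0.82. Those most like SLC2A3 were FBLN7 (0.905), MIR125B2 (0.898), MBOAT1 (0.887), DACT1 (0.865) and MYF5 (0.858), all dim probes with mean log2 levels of 4.68 to 5.38. They are the highest of 9180 genes over 11 points and are given as a description. No relation was shown between the changes of TXNIP and SLC2A3 themselves across the 11 animals (Pearson r = 0.177, permutation p = 0.597, adjusted p = 0.723 over 3 relations, with Spearman's rho = 0.227, permutation p = 0.506). Without the 2 animals farthest from the median TXNIP change r was 0.671, so the value depends on those animals.

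TXNIP fell in every paired animal, and the technical measures moved in different directions among them. The 28S ribosomal RNA probe used here was picked for the highest variance over these arrays among the probes of its gene. In anti-IL-15 animals 1, 2 and 5 and control animals 1 and 4, this 28S probe stood 3.66 to 4.28 higher after treatment on the log2 scale. In the other 6 the difference lay between -3.62 and 0.13. The TXNIP change was -1.11 to -0.46 (median -1.04) in the first 5 and -0.80 to -0.23 (median -0.49) in the other 6, so it lay below 0 in both sets, and further below on median in the first. The SLC2A3 change was -0.06 to 1.23 (median 1.05) in the first 5 and 0.09 to 1.40 (median 0.41) in the other 6. With the 28S probe as a covariate TXNIP was at -0.43 after anti-IL-15 (limma adjusted p = 0.153) and at -0.73 after the control antibody (adjusted p = 0.000247). HK1 and ENO1 were then also called after the control antibody, in a fit that called 868 of all 9190 genes there, against 201 without the covariate.

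The ratio of sorted cells after to before treatment was also set against TXNIP, and in the control arm both were related by the unadjusted p only. Adjustment was over 3 relations, separately for all 11 animals and for the control arm. The log2 cell ratio was below 0 in all 5 anti-IL-15 animals and in 4 of 6 control animals. In the control arm Pearson's r between the cell ratio and the TXNIP change was 0.900 (exact permutation p = 0.0333, adjusted p = 0.1 over 3 relations) and Spearman's rho 0.841 (exact permutation p = 0.0444). Without the 2 of 6 animals farthest from the median ratio r was 0.890. That value rests on fewer points than the 5 pairs for which none is given below, so it is no check. Over all 11 animals r was 0.312 (permutation p = 0.348, adjusted p = 0.723; rho = 0.205, permutation p = 0.538). In anti-IL-15 animals 1, 2, 4, 5 and 6 the log2 cell ratio was -2.71, -2.65, -2.49, -1.25 and -1.28. Their TXNIP changes in the same order were -0.70, -0.46, -0.23, -1.07 and -0.49. The deepest fall was in animal 5, whose cell ratio was the highest of the 5 and close to that of animal 6. The TXNIP change rose with the ratio among animals 1, 2 and 4, but animals 5 and 6, with the highest ratios, did not follow that order. No order therefore held over all 5. No correlation is given for 5 pairs. With log2 cell number as a covariate none of the 10 genes was called in either arm, and of all 9190 genes 2 were called after anti-IL-15 and 0 after the control antibody. TXNIP was then at -0.36 after anti-IL-15 (SE 0.20, limma adjusted p = 0.944) and -0.61 after the control antibody (SE 0.15, adjusted p = 0.343). SLC2A3 was at 1.00 after anti-IL-15 with a wider error (SE 0.35, adjusted p = 0.759). For SLC2A3 and the cell ratio r was -0.117 over the 11 animals (permutation p = 0.723, with rho = 0.0592 and permutation p = 0.865). In the control arm this r was 0.177 (exact permutation p = 0.683). It was 0.794 without the 2 of 6 animals farthest from the median ratio, again on too few points to be a check.

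**Figure D5:**
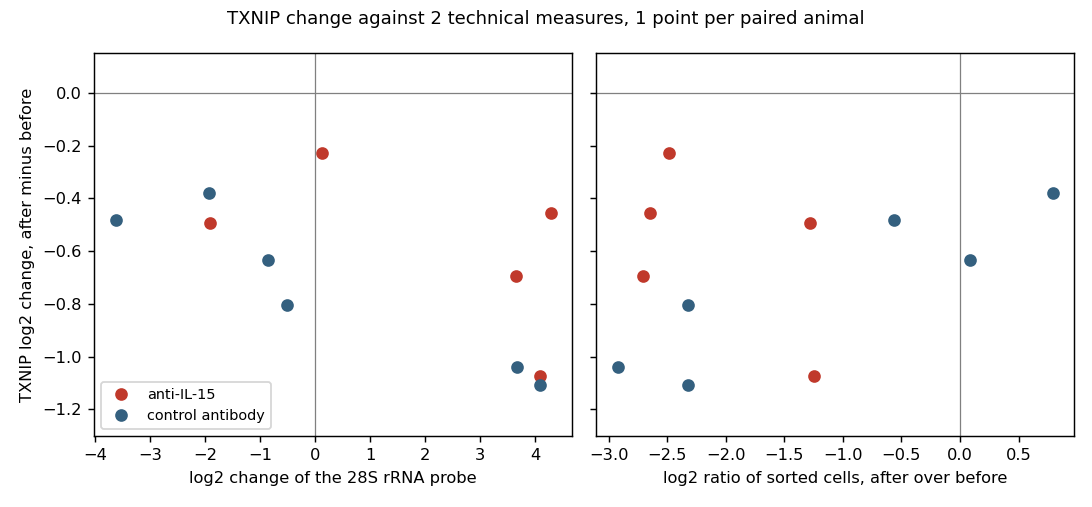
Log2 change of TXNIP (y axis) against the log2 change of the 28S ribosomal RNA probe (left) and the log2 ratio of sorted cells after over before treatment (right), 1 point per paired animal, anti-IL-15 in red and control antibody in blue. In the left panel 5 animals stand apart with 28S changes of 3.66 to 4.28, and in the right panel the 6 control points fall along a rising line (r = 0.900) and over all 11 animals r is 0.312.

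Several markers of the sorted cells were lower after the control antibody, and 1 of them, CX3CR1, was lower after both antibodies. Of the 12 tested markers of CD8+ effector memory T cells, 1 (CX3CR1) was lower after anti-IL-15 by the limma threshold (0.37% of all genes) and 6 were lower after the control antibody (1.47% of all genes), among them CD8A at -0.77 (adjusted p = 0.0104). The median change of the 12 was -0.02 after anti-IL-15, with 8 below 0 and 4 above, and -0.61 after the control antibody, with all 12 below. CX3CR1 was at -1.26 and -1.43 in the same order. Their summed linear level ran from 27476 to 32534 after anti-IL-15 against 24995 to 41277 before it, and from 23524 to 37150 after the control antibody against 30558 to 53046 before it. Monocyte markers, of which 4 of 7 were tested and none was called, were also summed. The sum was 1959 to 4114 after anti-IL-15 (median 2347) against 1725 to 3159 before it (median 2442). With the control antibody it was 2013 to 3689 after treatment (median 2756) against 1605 to 2584 before (median 1898). It is carried mainly by CD68, with a mean log2 level of 11.13, against 6.15 or less for CD14, LYZ and FCN1. CD14 and LYZ moved in opposite directions after anti-IL-15, by -0.52 and 0.57. Of the neutrophil markers 1 of 5 was tested, of the B cell markers 3 of 6, of the NK cell markers 4 of 5, of the platelet and erythrocyte markers 3 of 7, of the CD4 T cell markers 1 of 5 and of the naive T cell markers 2 of 5, and none of these was called in either arm. The part of the cell number, of 28S and of the marker levels in the changes of TXNIP and SLC2A3 was not tested beyond the covariates above.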

How the data were processed

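Total RNA of CD8+ TEM sorted from rhesus macaque PBMC was measured on 23 Illumina bead arrays of 12 animals. Equal masses of RNA that had passed a quality limit were amplified, per the labels' protocols. The deposited table holds 1 linear intensity per probe and array, neither background-subtracted nor normalised, and a detection p-value computed by the authors against negative controls. The deposited second table holds log2 values whose ranks matched those intensities (lowest Spearman correlation 0.9997). The submitters' processing notes name limma.

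Intensities were corrected and quantile normalised with neqc (R 4.3.3, limma 3.58.1, offset 16). The 9 probes with a 0 were normalised and then left out. A probe was kept if 5 arrays or more gave it a detection p under 0.05 (15744 probes). Symbols came from the platform annotation of the human array. Each gene with 1 symbol was read by its probe of highest mean, giving 9190 genes. The 10 symbols all stand in the macaque RefSeq table.

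Changes were fitted with lmFit and eBayes with a mean trend over 23 arrays, with the animal as a block, and p-values were adjusted by Benjamini-Hochberg over all genes. Arms were compared without a block over 12 arrays after and 11 before treatment. Pairing came from the animal named in the labels. Same-animal arrays correlated in their deviations from the group means by 0.05 to 0.51 (median 0.29). Arrays of different animals of an arm correlated by a median of -0.07. Taking deviations within groups pushes that value below 0, so it is no independent comparison. The fits were tested on simulated data. Genes named were all 10 members and, of each pathway list, those past the threshold or else the 2 with the smallest p. The members and lists were chosen with earlier results of these data known. Arrays limit the precision by their number, and p-values measure the spread between these animals. Alternatives were background correction, offset, scaling, the deposited log2 table, the filter, all probes, the block, covariates and leaving out each animal.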

Additional observations from a re-analysis of the deposited data

Results flagged for a closer look

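Within the groups, 3 levels stood far from the others of their group, by Dixon's test at 95%, among 66 groups of levels and changes tested, where chance gives about 1 in 20. The log2 level of PFKP before the control antibody was 5.62 in animal 4 and 6.75 to 7.18 in the other 5. The log2 level of ALDOA before the control antibody was 10.41 in animal 3 and 8.96 to 9.42 in the other 5. The log2 level of ENO1 before anti-IL-15 was 10.27 in animal 6 and 11.86 to 12.23 in the other 4. Each of these animals was also at the same end of its arm after treatment, and none of the changes within animals stood apart by the same test.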

How the results depend on the processing

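After anti-IL-15, 2 of the 10 genes were called. Without background correction and with the authors' deposited log2 table the count was 1 (SLC2A3), and it was 0 with 75th percentile scaling, with no filter on dim probes, with all kept probes, with no replicate block, with the replicate block as a random effect, and with either the logarithm of the cell number or the 28S probe as a covariate. Leaving out each animal in turn gave 0 to 2. After the control antibody 1 gene (TXNIP) was called, and the count was 0 with no replicate block, 0 with the cell number as a covariate (0 of all 9190 genes) and 3 with the 28S probe (TXNIP, HK1 and ENO1; 868 of all genes, against 201 without it), and 0 to 1 over the leave-one-out fits, the 0 without control animal 1. The cause was not tested, except that the fits without the filter and with all probes adjust over more tests. In the difference between the arms and in the comparisons of the arms after or before treatment, none of the 10 was called under any alternative. Over the alternatives the TXNIP change ran from -0.68 to -0.36 after anti-IL-15 (limma adjusted p 0.0326 to 0.944, called in 7 of 23) and from -0.81 to -0.60 after the control antibody (adjusted p 0.000247 to 0.343, called in 20 of 23). The SLC2A3 change after anti-IL-15 ran from 0.85 to 1.16 (adjusted p 0.0267 to 0.759, called in 9 of 23). BSG was called after the control antibody in 18 of 23 alternatives, SLC2A10 in 17 of 22 and PGD in 14 of 22. Of 1428 values of single genes, 51 lost and 2 gained their call, none past the threshold turned its sign, and 47 that were never called did. Slide as a block was not run, since the columns name no slides.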
